A study of Rattus norvegicus with 7 samples.

Results

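Blood vessels of the rat meibomian gland were examined through 10 genes: the leukocyte adhesion molecules Selp, Sele, Icam1 and Vcam1, the venous and storage granule genes Ackr1 and Vwf, and the general vessel genes Pecam1, Cdh5, Kdr and Tek. The genes were taken by symbol from the deposited tables, where 8 of the 10 were present among 17246 genes; Pecam1 and Ackr1 were not analysed here. The Entrez identifiers of the 8 are 25651 (Selp), 25544 (Sele), 25464 (Icam1), 25361 (Vcam1), 116669 (Vwf), 307618 (Cdh5), 25589 (Kdr) and 89804 (Tek). All 8 passed the filter on low counts. The glands came from wild-type female Sprague-Dawley rats aged 3 months. There were 4 libraries of untreated controls and 3 libraries of rats whose shaved upper eyelids received 300 mJ/cm2 of ultraviolet B light (UVB) in 5 min per day over 5 days. The labels do not say whether the controls were shaved or how long after the last exposure the glands were taken. Library names below (controls a, b, c and d, and UVB a, b and c) are arbitrary, since the columns name a group and no replicate number. Nothing in the labels says that the libraries came from separate animals, so p-values measure the spread between these libraries, which may be technical. The question was whether the adhesion genes changed by more than the vessel genes did.

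Leukocytes leave the blood in steps that the endothelium controls. The selectins P-selectin (Selp) and E-selectin (Sele) slow passing leukocytes by binding their surface sugars, and ICAM-1 (Icam1) and VCAM-1 (Vcam1) then hold them by binding integrins. The proteins of Selp and von Willebrand factor (Vwf) are stored together in endothelial granules. Sele, Icam1 and Vcam1 are known mainly as genes that inflammatory cytokines switch on. Storage of a protein does not set its gene apart from such genes. VE-cadherin (Cdh5), the VEGF receptor VEGFR2 (Kdr) and the angiopoietin receptor TIE2 (Tek) mark endothelium in general and served as the measure of vessel content.

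Library totals ran from 20680237 to 28784941 counts. The label of the tissue was checked with 10 genes of meibocytes, the lipid-making cells of the gland, which together took 96157 to 119287 CPM (counts scaled by TMM-normalised library size) in the controls and 91736 to 112866 CPM after UVB. The meibocyte wax synthesis gene Awat2 fell by 0.66 on the log2 scale (SE 0.093, edgeR adjusted p = 0.00453), and the lipid droplet genes Plin2 and Cidea by 0.45 and 0.50. By edgeR's quasi-likelihood test over 13709 genes, 1787 genes (13.0%) had an adjusted p under 0.05. The count fell by more than 1.5 times with 1 library left out: control b (1097 genes), control c (851), control d (943), UVB b (1047) or UVB c (1168). Of all tested genes, 6.30% were called higher and 6.74% lower after UVB. Of the 8 adhesion and vessel genes, 5 were called higher (Selp, Sele, Icam1, Vwf and Cdh5) and none lower. DESeq2 called 6 higher and none lower, where 8.32% of 14453 genes with an adjusted p were called higher. At an unadjusted edgeR p under 0.05, 6 were higher and none lower. By that p, in either direction, Kdr (0.00798) ranked 1940 and Tek (0.0862) ranked 5033 of the 13709 genes. All genes under 0.05 were not counted but number between these ranks, so the count of 6 has no exact share beside it. The groups did not overlap for 6 of the 8, all higher after UVB, where 12.8% of all tested genes were higher without overlap. Counts of all 8 were whole in every library, and none overlaps another gene in the RefSeq table of rat assembly GRCr8.

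Per transcript length, in the TPM values (transcript abundance scaled for length and library size) deposited by the authors, Cdh5 was the highest of the 8 in the controls with a mean of 12.9 (SD 1.48, n = 4). Icam1 followed at 8.65 ± 0.965 TPM, then Tek at 7.06 ± 0.812 TPM, and the ranges of these 3 genes did not touch. Vwf (4.38 ± 0.756 TPM), Kdr (3.48 ± 0.375 TPM), Sele (3.08 ± 0.519 TPM) and Selp (1.86 ± 0.419 TPM) came next, and neighbours among these 4 overlapped. Vcam1 was the lowest at 1.09 ± 0.153 TPM. After UVB more neighbours in the order overlapped, and Cdh5 (16.5 ± 1.41 TPM, SD, n = 3) and Icam1 (15.6 ± 3.37 TPM) now did so. Below them, Tek (8.39 ± 1.38 TPM), Sele (7.86 ± 2.43 TPM), Vwf (7.68 ± 0.390 TPM), Selp (6.48 ± 1.91 TPM) and Kdr (4.81 ± 0.920 TPM) overlapped one after the other. Vcam1 stayed lowest at 1.36 ± 0.920 TPM.

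Selp showed the greatest change of the 8. It measured 3.27, 4.01, 2.66 and 4.40 CPM in the controls (in the order a, b, c, d, here and below) and 16.6, 10.03 and 11.2 CPM after UVB (a, b, c). Every UVB library was above every control, with UVB a the highest, so the lowest irradiated gland still held more than the highest control. The means were 3.58 ± 0.778 CPM (SD, n = 4) and 12.6 ± 3.498 CPM (SD, n = 3), a 3.52-fold difference (log2 fold change 1.82, SE 0.22, edgeR adjusted p = 0.003). Without UVB a the log2 fold change was 1.57 (adjusted p = 0.00583).

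Sele measured 6.25, 6.35, 3.97 and 6.54 CPM in the controls and 18.7, 10.3 and 16.0 CPM after UVB. Its groups did not overlap either, and UVB b was the lowest of the irradiated libraries for both selectins. The rise was 2.60-fold (log2 fold change 1.38, SE 0.23, edgeR adjusted p = 0.00871), and 1.19 on the log2 scale without UVB a (adjusted p = 0.0245). Control c was low for both selectins: without it, the log2 fold change was 1.23 for Sele (adjusted p = 0.0219) and 1.69 for Selp (adjusted p = 0.0107).

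Platelets also hold Selp and Vwf, so their markers were measured beside them. Of 8 platelet genes in the table, 3 (Gp9, Ppbp and Treml1) had at most 3 counts in any library. Named for their roles, the platelet integrin gene Itga2b (log2 fold change -0.42, SE 0.28, edgeR adjusted p = 0.356) and the platelet receptor gene Gp1ba (-0.73, SE 0.35, adjusted p = 0.199) were not called. The chemokine gene Pf4 rose by 2.10 on the log2 scale (SE 0.39, adjusted p = 0.0132); its mean was 1.87 CPM (SD 1.08, n = 4) in control glands and 8.03 CPM (SD 2.53, n = 3) in irradiated ones. The summed level of the 8 genes was 3.68 to 6.11 CPM in the controls and 6.89 to 11.6 CPM after UVB, without overlap. Pf4 made up 1.87 of the control mean of 4.67 CPM and 8.03 of the UVB mean of 9.97 CPM, and the median log2 fold change of the 3 tested platelet genes was -0.42, or -0.20 without UVB b.

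**Figure D1:**
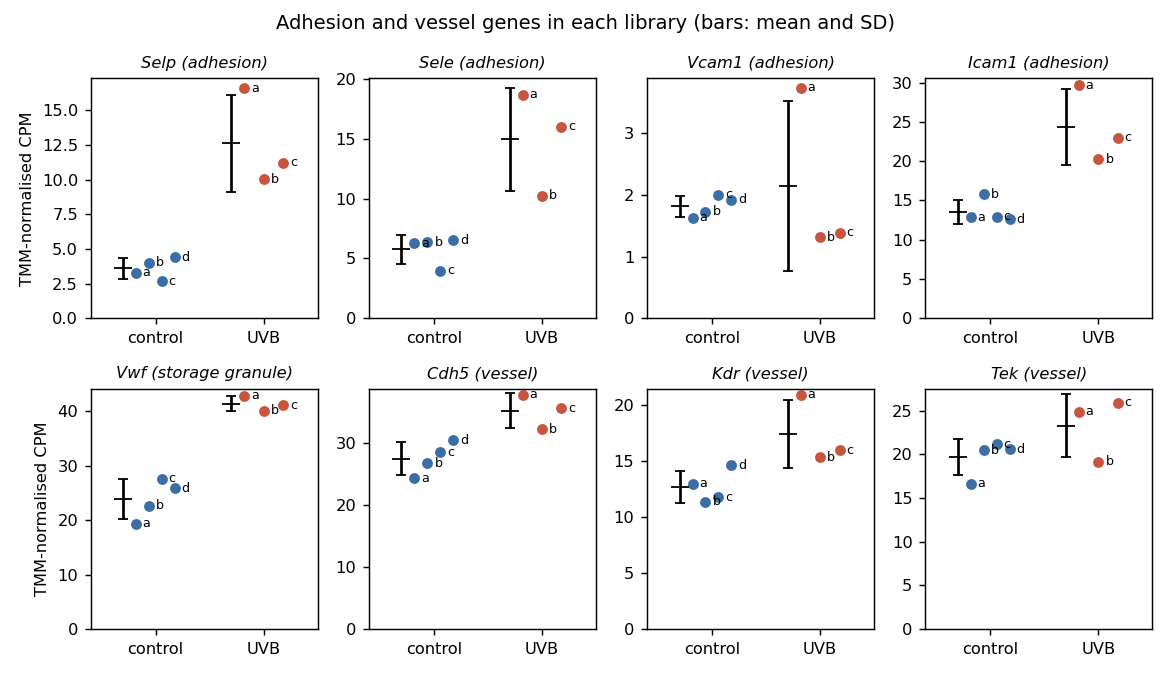
TMM-normalised CPM (linear axes from 0) of the 8 genes in 4 control and 3 UVB libraries, with letters naming the library and black bars the mean and SD. Every UVB library lies above every control for Selp, Sele, Icam1, Vwf, Cdh5 and Kdr, while Vcam1 is high in UVB a and below every control in UVB b and UVB c.

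Of the integrin ligands Icam1 and Vcam1, only Icam1 was called; the log2 difference between them overlapped between the groups and was not tested. Icam1 measured 12.8, 15.8, 12.9 and 12.6 CPM in the controls and 29.7, 20.3 and 23.001 CPM after UVB. The groups did not overlap, and UVB a was again the highest. The difference was 1.79-fold (log2 fold change 0.84, SE 0.14, edgeR adjusted p = 0.00739) and the call held without each library in turn, at adjusted p-values up to 0.0279.

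Vcam1 measured 1.63, 1.73, 2.00 and 1.92 CPM in the controls and 3.74, 1.32 and 1.39 CPM after UVB. It was high in UVB a and below every control in UVB b and UVB c, so its groups overlapped. Its log2 fold change, 0.22 (SE 0.36, edgeR adjusted p = 0.737), changed sign to -0.43 without UVB a (SE 0.24, adjusted p = 0.279). It was also below 0, at -0.033, in limma-voom with quality weights, which give weight to libraries by their scatter. With 34 to 79 counts per library, Vcam1 was the scarcest of the 8.

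Both genes are known targets of NF-kB, a transcription factor activated by inflammatory cytokines, so the sequences before their start sites are shown as context. RefSeq's promoter table for GRCr8 held 4 of the 8 genes (Kdr, Sele, Vcam1 and Icam1). The 250 bases before the start were searched on both strands for GGNNNTTCC, a short form of the NF-kB site, which 15.4% of the table's 33469 windows hold. Matches are in capitals. Only bases outside the gene's annotated span are printed, 5′ to 3′ on the gene's strand, from GRCr8 chr2:206742784-206743033 (minus strand) for Vcam1 and chr8:27829595-27829687 (plus strand) for Icam1.
Vcam1: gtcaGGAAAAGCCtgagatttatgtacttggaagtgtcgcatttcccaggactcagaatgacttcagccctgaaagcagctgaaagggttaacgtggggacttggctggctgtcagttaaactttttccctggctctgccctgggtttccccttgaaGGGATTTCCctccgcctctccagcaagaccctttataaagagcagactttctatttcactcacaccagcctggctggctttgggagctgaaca
Icam1: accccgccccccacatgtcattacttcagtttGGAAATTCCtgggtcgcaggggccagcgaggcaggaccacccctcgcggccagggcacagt
The first Vcam1 match reads GGCTTTTCC on the minus strand of the gene, and the match that starts 93 bases before the start, GGGATTTCC, is part of the window's only match to the longer NF-kB consensus, which 6.33% of windows hold. The Icam1 match GGAAATTCC starts 218 bases before the start listed for it. A further Icam1 match lies within the annotated span and is not printed, and Icam1 had no match to the longer consensus. The window of Sele, which rose, had no match to either motif, but it lies wholly within the gene's annotated span. Bases before that span were not searched for Sele, so its window says nothing about them. The window of Kdr, which did not pass the test, had a match to the longer consensus and none to GGNNNTTCC. Letters that match a motif are a description and do not show that a factor binds there.

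Icam1 is also made by keratinocytes and leukocytes, and Vcam1 by fibroblasts. The summed level of 5 keratinocyte genes was 11935 to 14734 CPM in the controls and 14569 to 17048 CPM after UVB, with overlap. For 5 fibroblast genes it was 2418 to 3756 CPM and 2456 to 4094 CPM, also with overlap. In the fibroblast list 3 of 5 genes rose, led by Lum, a matrix proteoglycan gene (log2 fold change 1.95, SE 0.21, edgeR adjusted p = 0.00348), and Pdgfra, a growth factor receptor gene (0.91, SE 0.12, adjusted p = 0.00348). The third, the proteoglycan gene Dcn (0.95, SE 0.22, adjusted p = 0.029), kept its call only without control a or UVB b (otherwise up to 0.075). In the keratinocyte list 1 of 5 was called higher: Krt14, a keratin gene of basal cells (0.47, SE 0.099, adjusted p = 0.0173), a call lost without control c or UVB c (up to 0.0628). The part of these cells in the Icam1 and Vcam1 results was not tested.

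Vwf encodes the clotting protein that endothelial granules release, and its irradiated libraries were the most even among the 8 genes, relative to the mean. It measured 19.3, 22.7, 27.6 and 25.8 CPM in the controls and 42.9, 40.1 and 41.1 CPM after UVB. The spread was narrower after UVB (SD 1.39 CPM, n = 3) than in untreated glands (SD 3.63 CPM, n = 4), and the groups were far apart. The rise was 1.73-fold (log2 fold change 0.79, SE 0.11, edgeR adjusted p = 0.00448).

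Other genes of granule content and release did not follow Vwf as a group. Of 8 tested, 1 was called higher and 2 lower, with a median log2 fold change of -0.014 (between -0.039 and 0.026 with 1 library left out) beside -0.0058 over all tested genes. Plat, encoding tissue plasminogen activator, rose by 0.85 on the log2 scale (SE 0.18, edgeR adjusted p = 0.02), a call lost without control c (adjusted p = 0.0567). Rab27a, a GTPase of granule transport, fell by 0.76 (SE 0.14, adjusted p = 0.0132), and Unc13d, which primes granules for release, fell by 0.86 (SE 0.18, adjusted p = 0.0171). Rab27a and Unc13d also act in granules of other cells.

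Of the 3 general vessel genes, only Cdh5 was called higher. Cdh5, the adhesion protein of endothelial junctions, measured 24.3, 26.7, 28.5 and 30.4 CPM in the controls and 37.7, 32.2 and 35.5 CPM after UVB. Its groups did not overlap, with a difference of 0.36 on the log2 scale (SE 0.092, edgeR adjusted p = 0.0346). That call was narrow: the adjusted p was 0.0508 without control a, 0.0824 without control b, 0.0723 without control c, 0.098 without UVB a, 0.0846 without UVB c. Its fold change itself ran from 0.30 to 0.42 across the fits that left out a library.

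Kdr, the main VEGF receptor of endothelium, measured 13.0, 11.4, 11.8 and 14.6 CPM in the controls and 21.0, 15.3 and 16.0 CPM after UVB. The groups were separate by a small margin, and the log2 fold change of 0.46 (SE 0.14) did not pass (edgeR adjusted p = 0.0564). DESeq2 called it (0.46, adjusted p = 0.0227), where 8.32% of 14453 genes with an adjusted p were called higher. It was 0.30 without UVB a.

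Tek, the receptor for the angiopoietins, measured 16.6, 20.5, 21.1 and 20.6 CPM in the controls and 24.9, 19.1 and 25.9 CPM after UVB. UVB b fell inside the range of the controls, and the difference of 0.24 on the log2 scale (SE 0.13) did not pass (edgeR adjusted p = 0.235). In bulk tissue, more vessel cells and more RNA per vessel cell cannot be told apart.

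To relate the adhesion genes to the vessel genes, each library's log2 CPM was taken relative to the mean log2 CPM of Cdh5, Kdr and Tek. That mean went from 4.25 ± 0.112 (SD, n = 4) to 4.60 ± 0.177 (SD, n = 3), higher by 0.35 and without overlap. Relative to it, Selp stood at -2.40 ± 0.292 without and -0.96 ± 0.230 with irradiation, Sele at -1.72 ± 0.361 and -0.73 ± 0.273, Icam1 at -0.49 ± 0.216 and -0.0046 ± 0.123, and Vwf at 0.32 ± 0.151 and 0.78 ± 0.131 (SD, n = 4 and n = 3). For all 4 genes each UVB library was above every control on this scale. Vcam1 went the other way in its mean, from -3.32 ± 0.0776 to -3.60 ± 0.679, with overlap. The mean of the 4 adhesion genes minus that of the vessel genes was higher by 0.66 after UVB, or by 0.97 when Vcam1 was left out.

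**Figure D2:**
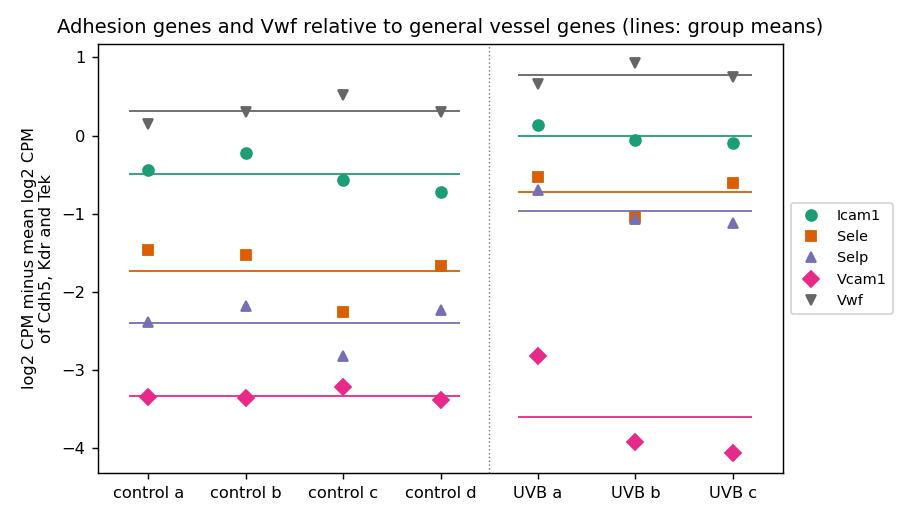
Log2 CPM of the adhesion genes and Vwf in each library minus the mean log2 CPM of Cdh5, Kdr and Tek (vertical axis, log2 units), with horizontal lines at the group means. Selp, Sele, Icam1 and Vwf sit higher in all 3 UVB libraries than in any of the 4 controls, and Vcam1 does so in UVB a alone.

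The same comparison was tested by refitting all genes with the libraries scaled to those vessel genes, which moved the median over the whole table to -0.35. Of all genes, 1.94% were then called higher and 36.8% lower. Selp (log2 fold change 1.46, SE 0.19, edgeR adjusted p = 9.27e-07), Sele (1.01, SE 0.19, adjusted p = 0.000152), Icam1 (0.48, SE 0.16, adjusted p = 0.0173) and Vwf (0.46, SE 0.15, adjusted p = 0.0152) were called higher than the vessel genes, and Vcam1 was not (-0.17, SE 0.30, adjusted p = 0.644). Genes of other cells were also called higher than the vessel genes. These included 3 of 5 fibroblast genes (1 lower) and 4 of 11 macrophage and monocyte genes (1 lower). Of 11 pericyte and smooth muscle genes, 0 were called higher and 4 lower. Scaling to 23 other endothelial genes, none of them among the 10, gave 1.42 for Selp (adjusted p = 7.09e-05), 0.97 for Sele (0.00153), 0.44 for Icam1 (0.0131), 0.41 for Vwf (0.00721) and -0.19 for Vcam1 (0.604), with 2.08% of all genes called higher and 56.6% lower. On that scale the vessel genes themselves lay near 0, at -0.030 for Cdh5, 0.065 for Kdr and -0.15 for Tek, with adjusted p-values of 0.279 or more. The uncertainty of the scaling genes is not part of these p-values. Being from refits of all genes, the p-values are not to be compared with those of the first fit. There, Selp had a greater log2 fold change (1.82, SE 0.22) at a higher adjusted p (edgeR, 0.003).

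**Figure D3:**
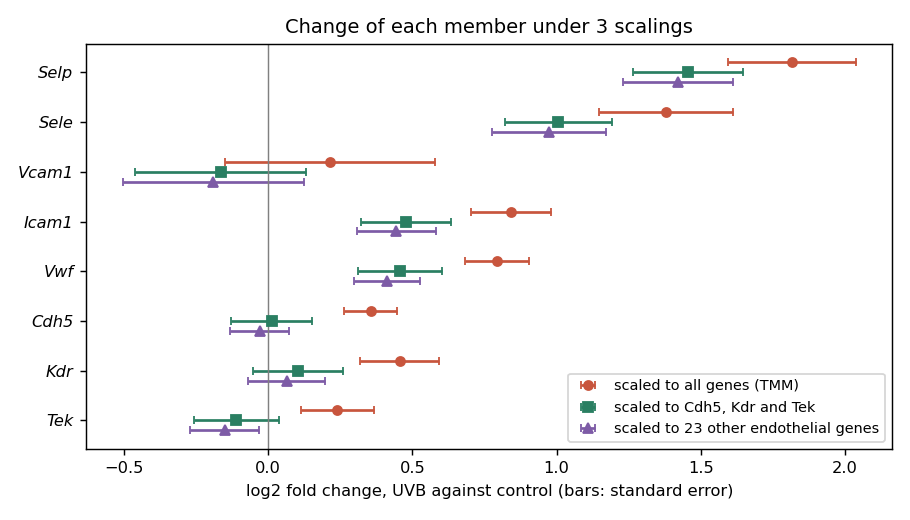
Log2 fold change of each gene, UVB against control (horizontal axis, bars are standard errors), with libraries scaled to all genes (circles), to Cdh5, Kdr and Tek (squares) or to 23 other endothelial genes (triangles). Selp, Sele, Icam1 and Vwf remain above 0 under all 3 scalings, and Vcam1 lies on both sides of 0.

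Further endothelial genes put the vessel genes in context. Of 25 listed, 23 were tested: 9 were called higher and none lower, with a median log2 fold change of 0.42, and 20 lay above 0. The clearest were Plvap, which encodes a protein of the diaphragms of fenestrated vessels (80.7 ± 6.48 CPM, SD, n = 4, to 131 ± 5.56 CPM, SD, n = 3; log2 fold change 0.69, SE 0.072, edgeR adjusted p = 0.00157), and Nos3, the endothelial nitric oxide synthase gene (0.71, SE 0.11, adjusted p = 0.00639). The junction gene Esam rose by 0.61 (SE 0.11, adjusted p = 0.00871) and the VEGF receptor gene Flt1 by 0.42 (SE 0.074, adjusted p = 0.00888). Esam, Nos3, Plvap and Flt1 each kept their call without any single library.

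Of 6 genes listed for venous and postcapillary endothelium, the site where leukocytes leave, 3 were called higher and none lower (median log2 fold change 0.32). Nr2f2, Ephb4 and Lrg1 were not called, and the part of other cells in the 3 calls was not tested. Csf2rb, a cytokine receptor subunit that leukocytes also carry, had a mean of 3.67 CPM (SD 1.24, n = 4) in control glands and 11.8 CPM (SD 3.38, n = 3) in irradiated ones, a rise of 1.67 on the log2 scale (SE 0.29, edgeR adjusted p = 0.00965). Il1r1, the receptor for interleukin 1, rose by 0.60 (SE 0.16, adjusted p = 0.0409) and the shared receptor subunit gene Il6st by 0.27 (SE 0.062, adjusted p = 0.0245). Without control c, UVB a or UVB c only Csf2rb of the 6 was called. In those 3 fits Il1r1 and Il6st did not pass, and their adjusted p reached 0.116 and 0.0745 over the fits that left out a library.

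Calls among arterial and angiogenic genes were set beside those of all tested genes, 6.30% higher and 6.74% lower. Of 7 arterial genes 1 was called higher and 1 lower (median -0.0094, between -0.081 and 0.059 with 1 library left out). Bmx, a kinase of arterial endothelium, fell by 0.92 on the log2 scale (SE 0.16, edgeR adjusted p = 0.00871), while the gap junction gene Gja5 rose by 1.01 (SE 0.27, adjusted p = 0.037). The Gja5 call held only without UVB c and was lost without each of the other libraries, at adjusted p-values up to 0.111. Of 14 angiogenic signalling genes none was called higher and 1 lower: Angpt1, the Tek ligand that steadies vessels, fell by 1.42 on the log2 scale (SE 0.34, adjusted p = 0.0294), between means of 8.32 CPM (SD 3.44, n = 4) and 3.12 CPM (SD 0.667, n = 3). Leaving out control c, control d, UVB a or UVB b ended the call, at adjusted p-values up to 0.103. Of the 14, 11 lay above 0 and 3 below, with a median of 0.19, or 0.10 without UVB a. At an unadjusted p under 0.05, 3 were higher and 2 lower, but the share of all genes at that threshold was not counted. DESeq2 called none higher. Vegfa, encoding the ligand of Kdr and chosen for that role, was at 72.4 ± 3.92 CPM and 63.3 ± 7.10 CPM (-0.19, SE 0.083, adjusted p = 0.154).

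Lymphatic vessel and mural cell genes were measured because their cells lie beside or among blood vessels. Of 6 lymphatic genes 1 was called higher, Pdpn (1.51, SE 0.19, edgeR adjusted p = 0.00356), which fibroblasts and keratinocytes also make, and 1 lower, Reln (-0.70, SE 0.18, adjusted p = 0.0371), a call kept only without control a and lost without each of the other libraries (up to 0.124). Of 11 pericyte and smooth muscle genes 3 were called higher and none lower (median 0.19). Pdgfrb, the pericyte growth factor receptor, led them (0.65, SE 0.11, adjusted p = 0.00706), followed by the muscle genes Des (0.57, adjusted p = 0.0218) and Tagln (0.39, adjusted p = 0.0279). Pdgfrb alone of the list was called without control b, control d or UVB b.

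Genes of cytokines known to induce the adhesion genes, and of their receptors, were measured next. Of 9 tested, 4 were called higher and none lower (median log2 fold change 0.61), where 6.30% of all tested genes were called higher. Among genes with a mean count of at least 50, 2 of the list were called (median 0.31). Under log2(TPM + 1), 2 were also called (median 0.47). Whether these cytokines acted on the adhesion genes was not tested. Of the 14 genes listed, Tnf, Il4 and Ifng were not analysed here. Osmr, the oncostatin M receptor gene, measured 21.4, 23.9, 22.9 and 22.6 CPM in the controls and 35.8, 32.6 and 35.8 CPM after UVB (log2 fold change 0.61, SE 0.072, edgeR adjusted p = 0.00238). Il4r, the interleukin 4 receptor gene, rose by 0.51 (SE 0.11, adjusted p = 0.0165). Cytokine genes were scarce beside their receptors: Osm, encoding oncostatin M, had 1 to 6 counts per control and 13 to 23 counts after UVB (2.69, SE 0.61, adjusted p = 0.0227), and lost its call without control c, control d or UVB a (up to 0.0666). Il6 had 3 counts over the controls together, against 82, 15 and 12 counts in UVB a, UVB b and UVB c. The ratio of pooled levels was 47.5 (exact 95% interval 15.8 to 234), or 16.6 without UVB a (5.09 to 85.2), where the intervals cover counting error only. Its call (adjusted p = 0.0247) was lost without any 1 of the controls, at up to 0.0715. Without control c or control d, 2 of the 9 genes were called.

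Genes of the NF-kB pathway, known to act on Sele, Icam1 and Vcam1, were measured as mRNA in gland RNA. The activity of NF-kB was not tested. Of 12 genes tested, 1 was called higher, 1 lower and 6 lay above 0 (median -0.0021, between -0.060 and 0.073 with 1 library left out). Among all tested genes, 6.30% were called higher and 6.74% lower. Bcl3, an NF-kB cofactor gene, averaged 8.59 CPM (SD 1.37, n = 4) in control glands and 19.6 CPM (SD 1.83, n = 3) in irradiated ones, a rise of 1.18 on the log2 scale (SE 0.13, edgeR adjusted p = 0.0023). Irf1, an interferon-responsive factor gene, averaged 50.3 CPM (SD 7.29) and 30.1 CPM (SD 2.11), and fell by 0.74 (SE 0.12, adjusted p = 0.00656). Nfkbia and Tnfaip3, the feedback inhibitors and chosen for that role, were at -0.20 (SE 0.14, adjusted p = 0.371) and -0.22 (SE 0.15, adjusted p = 0.345).

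**Figure D4:**
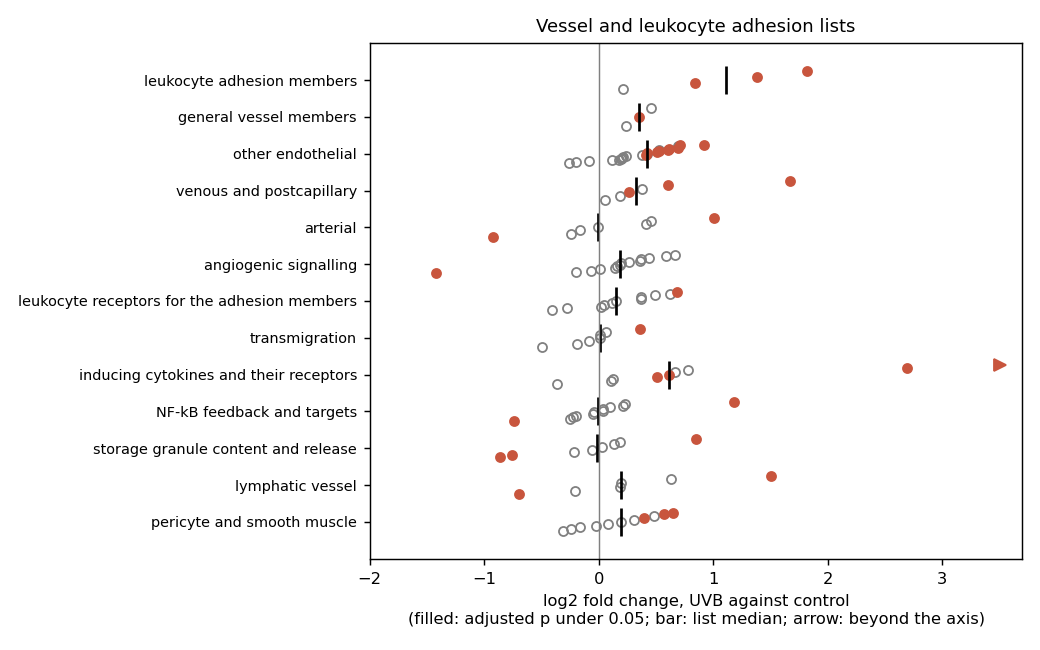
Log2 fold change, UVB against control, of each tested gene in 13 lists (horizontal axis; filled red points have an adjusted p under 0.05, open points do not; black bars are list medians; the arrow is Il6, beyond the axis). The adhesion genes have the highest median at 1.11, the other endothelial list lies at 0.42, and the NF-kB list is centred near 0.

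Leukocyte receptors for these adhesion molecules were called higher in 1 of 11 tested cases and lower in none (median 0.15, but 0.35 without control b and 0.40 without UVB b). That gene was Cd44, a selectin ligand that epithelial cells also carry, with means of 91.3 CPM (SD 11.5, n = 4) and 146 CPM (SD 16.3, n = 3), higher by 0.68 on the log2 scale (SE 0.11, edgeR adjusted p = 0.0071). The P-selectin ligand gene Selplg (0.49, SE 0.34, adjusted p = 0.364) and Itgb2, encoding the integrin chain that binds ICAM-1 (-0.28, SE 0.45, adjusted p = 0.73), were not called; both were named for their roles. Of 5 genes that build selectin ligand sugars none was called by edgeR or DESeq2, and none had an unadjusted p under 0.05; St3gal4 (0.034) and B4galt1 (-0.10) had the highest levels. Of 7 transmigration genes 1 was called higher (Jam2, 0.36, SE 0.097, adjusted p = 0.0378, lost without any 1 library at up to 0.12), and without control a none was called higher and 1 lower. Of 4 shedding proteases 1 was called higher (Mmp9, 2.77, SE 0.40, adjusted p = 0.00498).

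Leukocyte markers moved unevenly beside the adhesion genes. Of 4 tested neutrophil genes 2 were called higher; Csf3r, the G-CSF receptor gene, went from 2 to 7 counts in the controls to 24 to 80 counts after UVB (3.16, SE 0.49, edgeR adjusted p = 0.00608), while 3 of the 8 in the table had at most 3 counts in any library. The summed neutrophil list was 251 to 275 CPM in the controls and 295 to 372 CPM after UVB, most of it S100a8 and S100a9, which keratinocytes also make. S100a9 was the other one called (0.46, SE 0.12, adjusted p = 0.0333), and kept its call only without UVB a (otherwise up to 0.0856). Of 11 macrophage and monocyte genes 6 were called higher, led by the scavenger receptor gene Cd163 (3.503, SE 0.40, adjusted p = 0.00402), and 3 without control a, control c, control d, UVB a or UVB c; without control a 1 was also called lower. Their sums overlapped, at 95.04 to 168 CPM and 150 to 257 CPM. The pan-leukocyte gene Ptprc, named for its role, was at 7.34 ± 3.05 CPM (SD, n = 4) and 7.10 ± 1.74 CPM (SD, n = 3). Of 6 mast cell genes 2 were called higher, the protease genes Tpsab1 (1.72, SE 0.29, adjusted p = 0.0077) and Cpa3 (1.09, SE 0.25, adjusted p = 0.0223), the latter not without control b, control c or UVB c (up to 0.0652). Of 4 T cell genes 2 were called higher, Cd8a (2.48, SE 0.38, adjusted p = 0.00596) and Cd2 (1.14, SE 0.29, adjusted p = 0.0333), and Cd2 kept its call only without control b (otherwise up to 0.0875). Of 2 red blood cell genes none was called by edgeR or DESeq2, and none had an unadjusted p under 0.05. The part of these cells in the adhesion results was not tested.

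Genes with the profile most like that of Selp were found by the root mean square distance of log2 CPM over the 7 libraries, each gene taken from its control mean, among 11966 genes with a mean count of at least 50. The nearest were Pcsk5 (distance 0.19), Lum (0.23), Pdpn (0.27), Col8a1 (0.27) and Chi3l1 (0.28), and Sele ranked 9 of these genes at 0.33. Icam1 ranked 147 and Vwf 206. The nearest to Cdh5 were Chpf (0.026), Sec24d (0.035), Ehd2 (0.052), Mrps6 (0.059) and Cfap20 (0.063), with Tek at rank 192 and Kdr at rank 430. The distances are a description of these libraries.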

How the data were processed

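Gland RNA of 4 control and 3 UVB libraries was sequenced. The authors deposited expected counts (estimated counts per gene, not normalised, 12.5% of values not whole) and TPM values, which sum to 82.0% to 84.1% of full scale over the genes here. Per the submitters' processing notes, FastQC, Trimmomatic, DRAGEN and Picard were used with build rn7; the counting program, annotation and strand handling are not given in the sources used here. Unquoted commas moved cells in 2281 rows, so each row was read backwards from its last cell, and 5 rows without all values were left out. Counts were rounded and tested in edgeR 4.0.16 (R 4.3.3; quasi-likelihood, robust, TMM, filterByExpr; two-sided, Benjamini-Hochberg over all genes, threshold 0.05); the standard error is the absolute log2 fold change over the square root of F. CPM are TMM-normalised, and log2 CPM use a prior count of 2. The alternatives were DESeq2 1.42.0, limma 3.58.1 (voom, or log2(TPM + 1) and log2(TPM + 0.1)), other scalings, filters, unrounded counts and leaving out each library. The fits were tested on simulated data. Members and lists were chosen with earlier results of these data known. In each list the genes named were up to 4 with the smallest p among those called, or 2 of the highest level where none was; other genes, named for a role or for low counts, are marked as such or given with those counts. Pecam1 had been the vessel reference for the likeness of profiles, and Cdh5 took its place.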

Additional observations from a re-analysis of the deposited data

Results flagged for a closer look

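The spread among the 4 controls was examined for 62 values (gene levels and means over the vessel genes). In 7 of them a single library stood apart from the rest; chance flags about 1 in 20, or 3.1. Groups of 3 were not examined in this way. Sele was low in control c (3.97 CPM), with the other controls at 6.25 to 6.54 CPM. Icam1 was high in control b (15.8 CPM), with the others at 12.6 to 12.9 CPM. Tek measured 16.6 CPM in control a against 20.5 to 21.1 CPM. Control a was also the lowest for Il6st (145 against 163 to 164 CPM), Unc13d (19.4 against at least 27.4 CPM), Reln (11.8 against 18.8 to 19.8 CPM) and the T cell gene Cd8a (0.140 against 0.256 to 0.280 CPM). Without the library apart, the log2 fold change was 1.23 for Sele, 0.92 for Icam1 and 0.17 for Tek.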

How the results depend on the processing

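No paired analysis was possible because no column name holds a replicate number from the labels. Selp, Sele, Icam1 and Vwf were called higher in every fit that was run, and between 4 and 6 of the 8 genes were called. Cdh5 was not called with library size alone (adjusted p = 0.0579), under log2(TPM + 1) with or without a filter (0.0686 and 0.0966) or under log2(TPM + 0.1) (0.068). Vcam1 reversed to -0.033 in limma-voom with quality weights, -0.17 scaled to the vessel genes, -0.19 scaled to the other endothelial genes and -0.43 without UVB a, and ran from -0.43 to 0.48 across the fits that left out a library. Scaled to the other endothelial genes Cdh5 became -0.030 and Tek -0.15, and scaled to the vessel genes Tek became -0.11; these shifts follow from the scaling. Among genes of low change, the ligand sugar gene St3gal4 turned to -0.013 without control a (range -0.013 to 0.086) and the red blood cell gene Alas2 to -0.040 without control d and -0.22 without UVB a (range -0.22 to 0.35); the cause was not tested. All genes called numbered 1137 under log2(TPM + 1) without a filter and 851 to 1898 across the fits that left out a library. The adhesion minus vessel level of 0.66 was 0.97 without Vcam1 and 0.49 to 0.76 across the fits that left out a library; with Vwf among the vessel genes, chosen after seeing the data, it was 0.54. Of 51 called genes picked for naming by the rule, 29 were called in all fits without vessel scaling. Counts for the 8 genes were lowest for Vcam1, at 34 to 79 per library.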
